A study of Homo sapiens with 4 samples.

Results

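The subunits of the transcription factor NF-kB and the proteins that switch it off were followed through 10 listed genes. These were the subunit genes NFKB1, NFKB2, REL, RELA and RELB, the IkB inhibitor genes NFKBIA, NFKBIB and NFKBIE, and the feedback genes TNFAIP3 and BIRC3. Members were all probe sets that the annotation of the PrimeView array pairs with exactly 1 symbol, where that symbol is on the list. This gave 18 of the 49293 probe sets and 9 of the 18132 genes measured, and BIRC3 was not analysed here. The RNA came, per the labels, from Hs578T, a human breast cancer cell line with mesenchymal features, grown with serum, antibiotics and insulin. The labels name no added NF-kB stimulus. The 2 arrays labelled ELK3 knockdown, numbered 1 and 5, came from cells stably transduced with lentiviral shRNA against ELK3, an ETS family transcription factor, and the 2 arrays labelled sh control are numbered 1 and 2. What these numbers identify is not stated in the labels, so the p-values measure the spread between these arrays, which may be technical.

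NF-kB is a dimer of subunits that share a DNA-binding domain. RELA, RELB and REL carry an activation domain, whereas NFKB1 and NFKB2 encode the precursors p105 and p100, which are processed to p50 and p52. In unstimulated cells IkB proteins hold the dimers in the cytoplasm, and the IKK kinase complex marks these inhibitors for destruction after signals such as TNF or interleukin-1. NF-kB in turn activates the genes for several of its own subunits and inhibitors, above all NFKBIA and TNFAIP3, which limits the response. The alternative branch of the pathway runs through the kinase NIK (MAP3K14) and the pair p52 and RELB.

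ELK3 itself was lower in both knockdown arrays, with log2 signals of 8.09 and 7.92 against 10.05 and 10.07 in the control arrays (limma log2 change -2.06, SE 0.09, adjusted p = 2.57e-06). The groups stood far apart over the whole array. The arrays of a group correlated at 0.996 and 0.998 over all probe sets, and arrays of different groups at 0.902 to 0.904. All 11 markers of mesenchymal cells on a list were lower in the knockdown arrays, with a summed log2 signal of 92.3 to 93.1 against 140.1 to 140.8. VIM stayed bright (13.05 and 13.20 against 14.30 and 14.27), while AXL, a defining marker of mesenchymal breast cancer lines, was at 5.82 and 5.42 against 12.92 and 12.85. Of 9 epithelial markers 4 were higher and 0 lower (summed signal 70.7 to 72.4 against 54.5 to 54.6). The 5 that did not pass included CDH1 and EPCAM (-0.10 and -0.08), which were between 3.67 and 4.50 on all 4 arrays. Of 6 blood cell markers, 5 of leukocytes and HBB of red cells, 1 was lower, CD68, and 0 higher (31.7 to 31.8 against 32.7 to 33.0), and PTPRC, which all leukocytes carry, was between 3.60 and 3.78 on all 4 arrays, where the dimmest value of any probe set was 2.97. Of 3 endothelial markers 1 was lower, PECAM1, and 0 higher (17.0 to 17.5 against 18.2 to 18.3). These marker counts stand beside 21.3% lower and 29.5% higher over all genes (limma, adjusted p under 0.05). COL1A2 and CDH11 changed by -8.37 and -7.18 and the epithelial keratin gene KRT19 by 5.95 on the log2 scale. The arrays labelled ELK3 knockdown thus go against several markers of the labelled line. Whether they hold RNA of that line was not tested, nor was the part of these shifts in the results below, so each change is a difference between arrays as labelled. In RNA from a whole culture, fewer cells of a type and less RNA per cell cannot be told apart.

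Of the 9 member genes measured, 6 were lower and 0 higher in the knockdown arrays (limma, Benjamini-Hochberg adjusted p under 0.05 over all genes, with the brightest probe set of each gene). TNFAIP3 fell most, followed by RELB and NFKBIA, and NFKB2, NFKB1 and REL fell by less than 1.5-fold. RELA, NFKBIB and NFKBIE did not pass. Over all 18132 genes tested, 21.3% were lower and 29.5% higher. At an unadjusted p under 0.05 the count of members higher was also 0. The median log2 change of the 9 genes was -0.50, against -0.01 over all genes. The groups of arrays did not overlap for 8 of the 9 genes, which has to be read against 75.3% of all genes. Only 3 of the members, TNFAIP3, RELB and NFKBIA, met the selection given in the series' design text, a fold over 1.5 with an unadjusted p under 0.05, which 12.6% of all genes met as lower and 19.1% as higher.

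Taken as single probe sets, 9 of 18 were lower and 0 higher, where 22.1% of all probe sets were lower and 27% higher (limma, adjusted over all 49293 probe sets). No member probe set was higher at an unadjusted p under 0.05 either, which is a count of 0. The groups did not overlap for 13 of the 18, against 74.5% of all probe sets. In 5 of the genes several probe sets read the same gene; these are not replicates, and they are given one by one. A name ending in _s_at or _x_at marks probes that may also match other transcripts, and 8 of the 18 have such a name.

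**Figure D1:**
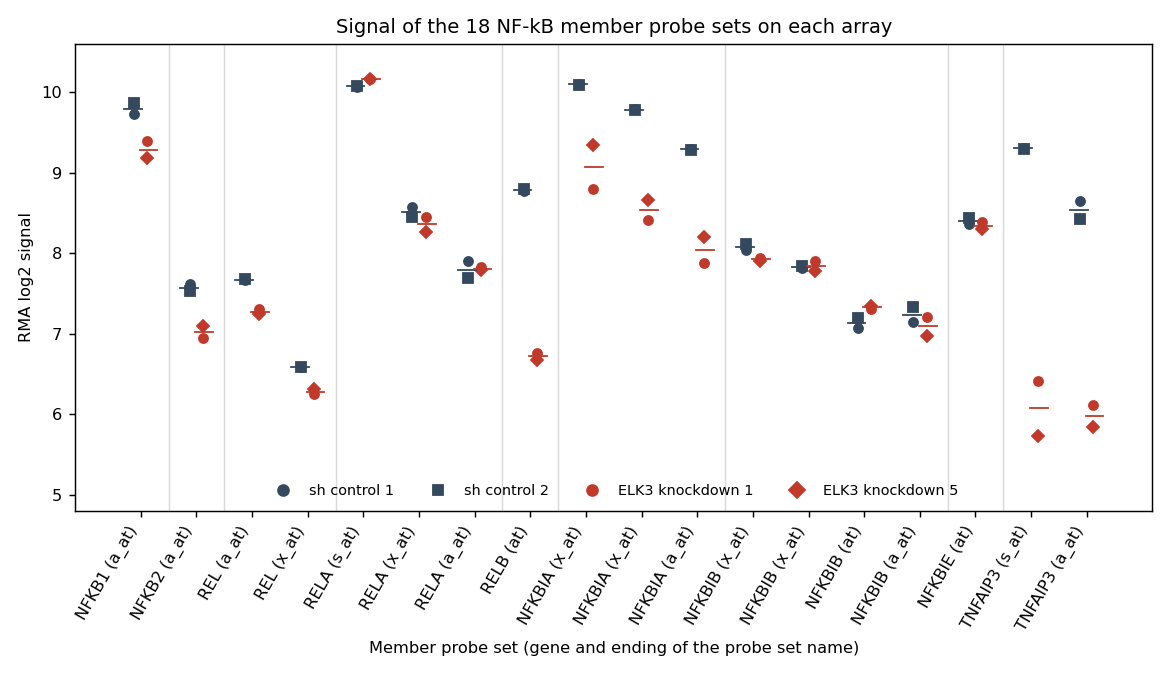
RMA log2 signal (vertical axis) of each of the 18 member probe sets (horizontal axis, with the ending of the probe set name) on the 4 arrays; dark marks are sh control, red marks ELK3 knockdown, and short lines are group means. TNFAIP3, RELB and NFKBIA show wide gaps between red and dark marks, and RELA, NFKBIB and NFKBIE lie close together.

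RELB, the subunit that pairs with p52 in the alternative branch, fell most among the subunits. Its only probe set read 6.77 on knockdown array 1 and 6.67 on knockdown array 5, against 8.77 and 8.80 on the control arrays. Both knockdown arrays were low, within 0.09 of each other, and the groups were far apart. The control mean was 8.79 ± 0.020 and the knockdown mean 6.72 ± 0.067 (SD, n = 2 each). RELB thus fell 4.19-fold (log2 change -2.07, SE 0.10, 95% interval -2.30 to -1.83, limma adjusted p = 3.92e-06). A larger fall was measured for 3.03% of all genes.

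NFKB2 encodes p100, which restrains RELB and is the precursor of its partner p52, and it fell less. It read 6.94 and 7.10 in the knockdown arrays and 7.61 and 7.52 in the controls. The groups did not overlap, and the gap between them exceeded the gap within either. The fall was 1.46-fold (log2 change -0.55, SE 0.11, 95% interval -0.81 to -0.28, limma adjusted p = 0.00489), and 13.3% of all genes fell further.

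NFKB1, the gene for p105 and p50, moved by a similar amount. Its probe set read 9.39 and 9.18 in the knockdown arrays against 9.72 and 9.86 in the controls. The knockdown arrays were both lower. The fall was 1.42-fold (log2 change -0.50, SE 0.10, 95% interval -0.74 to -0.27, limma adjusted p = 0.00423). A larger fall was found for 14.2% of all genes.

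REL, which encodes c-Rel, a subunit best known from lymphocytes, had the smallest fall that passed. Its brighter probe set read 7.31 and 7.24 against 7.66 and 7.68, a 1.32-fold fall (log2 change -0.40, SE 0.10, limma adjusted p = 0.0135). The dimmer one, whose name ends in _x_at, read 6.25 and 6.31 against 6.59 and 6.59. It changed by -0.31 and missed the threshold (adjusted p = 0.0527 over all probe sets). All 4 knockdown readings of REL lay under the control readings of the same probe set. The call of REL was lost without control replicate 1 (limma adjusted p = 0.0785) and without control replicate 2 (limma adjusted p = 0.0960), while the change stayed at -0.41 and -0.39. In fits that leave 1 array in a group, that array is assumed to vary like those of the other group. The error then comes from the spread of the other group, moderated by limma over all genes. The SE of REL was then 0.17.

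RELA, the gene for p65 and the main activating subunit of the classical branch, did not pass on any of its 3 probe sets. The brightest read 10.17 and 10.17 in the knockdown arrays and 10.07 and 10.07 in the controls, a change of 0.10 (95% interval -0.06 to 0.26, limma adjusted p = 0.268). The groups were apart there, with the knockdown arrays higher. The others changed by -0.15 (95% interval -0.40 to 0.09) and 0.01 (95% interval -0.24 to 0.27), with overlapping arrays on both. These intervals do not show that RELA was the same in both groups, but at the outer bounds they leave changes of at most 0.40 on the log2 scale, well under the 2.07 of RELB.

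NFKBIA encodes IkB-alpha, the inhibitor that NF-kB itself induces quickly and that ends the response. All 3 of its probe sets were lower in the knockdown arrays. The brightest read 8.79 on knockdown array 1, 9.34 on knockdown array 5 and 10.10 on both controls. The next brightest read 8.41 and 8.66 against 9.80 and 9.77, and the dimmest 7.88 and 8.21 against 9.30 and 9.28. On each of the 3, knockdown replicate 1 was the lower array of its pair, and the control arrays differed by no more than 0.023. On the brightest probe set the controls averaged 10.10 ± 0.0067 and the knockdown arrays 9.07 ± 0.39 (SD, n = 2 each). This is a 2.05-fold fall (log2 change -1.03, SE 0.16, 95% interval -1.42 to -0.64, limma adjusted p = 0.00146). The others fell by 1.25 each on the log2 scale, or 2.38-fold and 2.37-fold (limma adjusted p = 4.76e-05 and 1.13e-04 over all probe sets). The gap of 0.54 between the knockdown arrays on the brightest probe set was exceeded by 2.11% of all genes.

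NFKBIB encodes IkB-beta, which NF-kB induces little and which is degraded more slowly. None of its 4 probe sets passed, which is a count of 0. The brightest read 7.94 and 7.90 against 8.04 and 8.12, a change of -0.16 (95% interval -0.38 to 0.07, limma adjusted p = 0.222). The next brightest read 7.90 and 7.77 against 7.82 and 7.84, with overlapping arrays and a change of 0.0072. The remaining pair went in opposite directions, at 0.19 and -0.14. The direction of NFKBIB therefore depends on the probe set that is read.

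NFKBIE encodes IkB-epsilon, which holds mainly dimers of RELA and c-Rel. Its only probe set read 8.38 and 8.30 in the knockdown arrays and 8.36 and 8.43 in the controls. The arrays overlapped, and the change was -0.06 (95% interval -0.28 to 0.16, limma adjusted p = 0.647). It was the only member gene of the 9 whose groups overlapped by the brightest probe set.

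TNFAIP3 encodes A20, an enzyme that edits ubiquitin chains on signalling proteins and shuts down the path to IKK. Its brighter probe set read 6.41 on knockdown array 1 and 5.73 on knockdown array 5, against 9.31 and 9.30 on the controls. The other read 6.12 and 5.84 against 8.65 and 8.42. The knockdown arrays were low on both, and replicate 5 was the lower one each time, the reverse of NFKBIA. On the brighter probe set, whose name ends in _s_at, the controls averaged 9.30 ± 0.0058 and the knockdown arrays 6.07 ± 0.48 (SD, n = 2 each). TNFAIP3 fell 9.41-fold there (log2 change -3.23, SE 0.21, 95% interval -3.72 to -2.74, limma adjusted p = 1.51e-05). The other probe set fell 5.88-fold (log2 change -2.56, SE 0.14, limma adjusted p = 7.27e-06 over all probe sets). The size of the fall thus depends on the probe set by over 1.5 times. A fall larger than that of the brighter probe set was measured for 1.37% of all genes. The gap of 0.67 between the knockdown arrays was exceeded by 1.03% of genes.

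**Figure D2:**
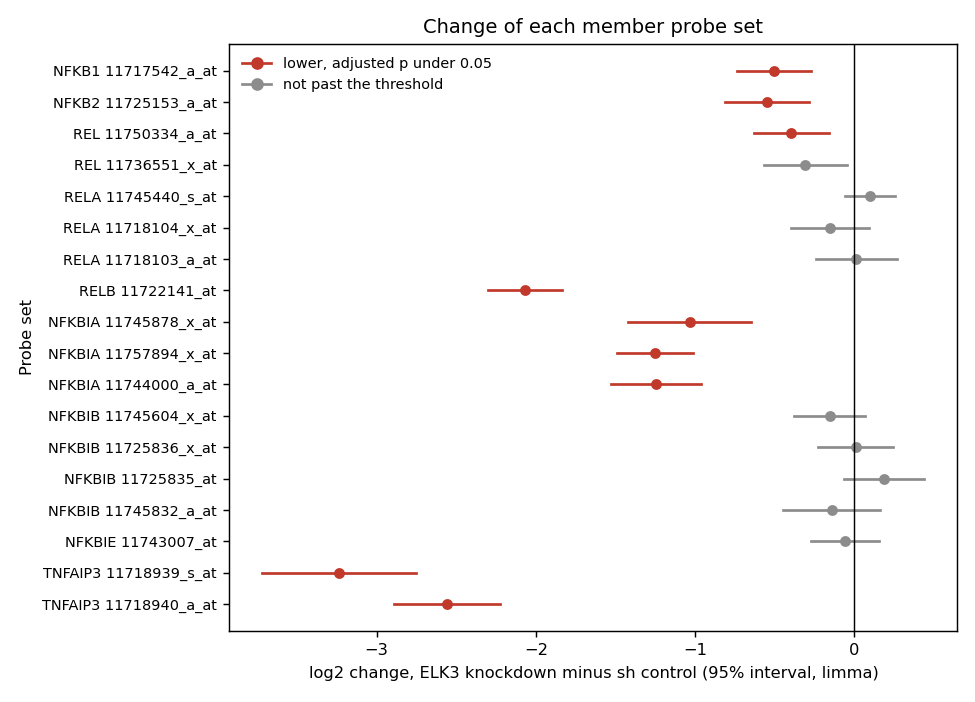
The log2 change of each member probe set, ELK3 knockdown minus sh control (horizontal axis), with its 95% interval from limma; red marks passed an adjusted p under 0.05 over all probe sets, grey marks did not. The 9 red marks all lie left of 0, from -0.40 for REL to -3.23 for TNFAIP3, and the grey intervals of RELA, NFKBIB and NFKBIE all span 0.

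NF-kB is known to act on several of the listed genes, and promoters of the listed genes are shown. The sequences are from RefSeq, build GRCh38.p14, which held 13 windows for 8 of the 10 listed genes; RELB and NFKBIE were not among them. Each window runs from 250 bases before to 50 bases after an annotated start, and some genes have several starts. The kappaB consensus was searched on both strands. It was found in 8 of the 13 windows and in 5.91% of all 35116 promoter windows of the same length. The 8 windows belong to 7 of the 8 genes, among them BIRC3, which was not analysed here. Known NF-kB targets are on the list, so a high share follows from its choice and is not a result of these arrays. The 250 bases before the start are given for TNFAIP3 (chr6:137867009-137867258, plus strand) and for NFKBIA (chr14:35404750-35404999, minus strand), the members with a window that fell most. Capitals mark the kappaB matches.
TNFAIP3: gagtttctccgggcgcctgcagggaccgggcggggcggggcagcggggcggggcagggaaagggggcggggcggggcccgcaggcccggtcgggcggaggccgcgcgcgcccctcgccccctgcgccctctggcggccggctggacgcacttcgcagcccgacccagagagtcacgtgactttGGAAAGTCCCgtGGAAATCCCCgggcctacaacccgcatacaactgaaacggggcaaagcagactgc
NFKBIA: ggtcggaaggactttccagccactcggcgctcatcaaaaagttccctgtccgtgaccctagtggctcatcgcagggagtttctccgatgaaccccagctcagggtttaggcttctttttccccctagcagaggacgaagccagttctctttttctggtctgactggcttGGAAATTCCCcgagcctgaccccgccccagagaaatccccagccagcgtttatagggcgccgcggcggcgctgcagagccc

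The TNFAIP3 matches begin 67 and 55 bases before the start and the NFKBIA match 81 bases before it. For the subunits that fell by less, and for NFKBIB, which did not pass, 30 bases around a match are given for comparison. They come from chr4:102501301-102501330 (NFKB1), chr10:102394462-102394491 and chr10:102395675-102395704 (NFKB2, the middle and the last start), chr2:60881518-60881547 (REL) and chr19:38899932-38899961 (NFKBIB), all on the plus strand.
NFKB1: gacgtcagtGGGAATTTCCagccaggaagt
NFKB2 (middle start): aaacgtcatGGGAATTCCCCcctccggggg
NFKB2 (last start): ggtattttcGGGACTTTCCtaagctgctct
REL: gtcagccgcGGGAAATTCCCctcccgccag
NFKBIB: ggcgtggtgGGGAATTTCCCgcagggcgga

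The runs of 11 capitals in NFKB2, REL and NFKBIB hold overlapping matches that are shifted by a base and are counted as 1 site. The middle and last windows of NFKB2 hold 1 more site each. NFKBIB thus has a match 28 bases before the later of its starts although none of its probe sets passed, and the RELA windows hold 0. The letters CCGGAA, a narrow form of the motif bound by factors of the ETS family to which ELK3 belongs, were also searched on both strands. They were found in 2 of the 13 windows, 1 of RELA and 1 of NFKBIB, and in 17.2% of all windows. No CCGGAA match overlapped a kappaB match in these windows, but the shorter GGAA that ETS factors share lies inside several of the kappaB matches printed above and was not counted. A match describes letters in these windows and is not a measured binding site, and binding was not measured in these data.

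**Figure D3:**
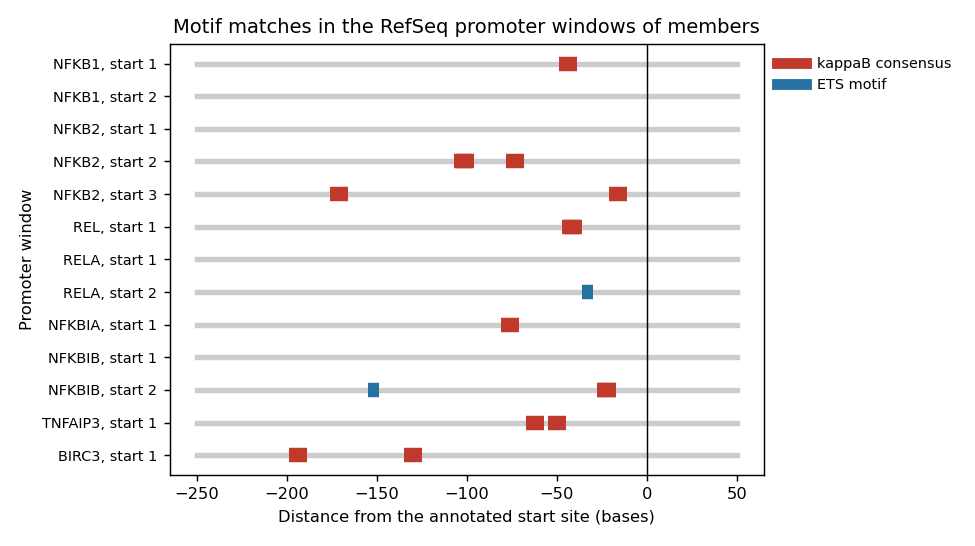
Position of the kappaB consensus (red) and the ETS motif CCGGAA (blue) in the 13 RefSeq promoter windows of member genes, as distance in bases from the annotated start (horizontal axis, 0 at the start); each grey line is a window, named by gene and start. Red marks lie in 8 windows and blue marks in 2, those of RELA and NFKBIB.

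The rest of the pathway was counted on lists of 83 other genes, of which 48 were lower, 13 higher and 22 not past the threshold in the gene-level test, against 21.3% lower and 29.5% higher over all genes. Their median log2 change was -0.46. The 83 include the 26 NF-kB target genes described below, 21 of them lower and 0 higher. That target list overlaps with one whose fall in these arrays was already known, so the pooled count is not independent of that earlier result. The atypical IkB proteins sit in the nucleus and tune NF-kB at promoters. Of these, NFKBIZ changed by -2.73 (limma adjusted p = 2.40e-06) and BCL3, the partner of p50 and p52, by -1.72 (limma adjusted p = 4.08e-05), and NFKBID did not pass (-0.22). The fall of BCL3 rests on its probe set. It was -0.54 when its 4 probe sets were averaged, and it no longer passed, at -0.31 (limma adjusted p = 0.0545), with _s_at and _x_at probe sets left out.

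Among 13 genes of the IKK complex and the kinases upstream of it, 5 were higher and 3 lower. These are 38.5% and 23.1% of the list, beside 29.5% and 21.3% over all genes. The TAK1 kinase gene MAP3K7 and the genes of its partners TAB2 and TAB1 rose by 1.05, 0.98 and 0.89 on the log2 scale (limma adjusted p = 4.50e-05, 5.06e-05 and 1.42e-04). Averaged over their probe sets, MAP3K7 was at 0.78, TAB2 at 0.74 and TAB1 at 0.37. IKBKG, which encodes the scaffold NEMO, was lower by its brightest probe set (-0.69, limma adjusted p = 9.83e-04). The catalytic subunits of IKK did not pass, with CHUK at 0.28 and IKBKB at -0.20 (limma adjusted p = 0.179 and 0.0853). Without knockdown replicate 5, which leaves 1 knockdown array, both changes were larger and their calls changed, with CHUK at 0.50 and IKBKB at -0.24. With quantile normalization IKBKB passed, at -0.24 (limma adjusted p = 0.0499). CHUK read 8.68 and 8.24 in the knockdown arrays against 8.24 and 8.13, so knockdown replicate 5 lay at the level of the controls. MAP3K14, the kinase of the branch of RELB, read 8.18 and 7.33 against 8.09 and 8.02. Its knockdown arrays lay on either side of the controls, and it did not pass (-0.30, limma adjusted p = 0.362).

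Of 13 receptors that signal to NF-kB, 7 were lower and 2 higher. These are 53.8% and 15.4%, beside 21.3% and 29.5% over all genes. TLR4, the receptor for bacterial lipopolysaccharide, changed by -4.18, IL1R1, the interleukin-1 receptor, by -4.00 and TNFRSF12A, the receptor for TWEAK, by -2.16, while CD40 rose by 2.71 (limma adjusted p = 1.44e-06, 2.07e-06, 2.01e-06 and 3.50e-05). TLR4 was at -3.23 and IL1R1 at -2.24 when their probe sets were averaged. CD40 read 7.17 and 6.52 in the knockdown arrays against 4.06 and 4.22. Of 17 receptor adaptors and ubiquitin ligases measured, 11 were lower and 4 higher, or 64.7% and 23.5%, beside the same shares over all genes. MYD88, the adaptor of interleukin-1 and Toll-like receptors, changed by -3.54, or -1.52 as the average of its 5 probe sets, CARD10 by -1.13 and TICAM1 by -0.93, while TRAF6, a ubiquitin ligase that acts downstream of MYD88, rose by 1.08 (limma adjusted p = 6.19e-06, 1.34e-04, 2.24e-04 and 1.22e-04).

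Among 12 other negative regulators, which like TNFAIP3 restrain the pathway, 5 were lower and 2 higher. CYLD, a deubiquitinase that like A20 removes ubiquitin chains, changed by -1.33 and OTULIN, which removes linear chains, by 0.64 (limma adjusted p = 4.37e-05 and 4.82e-04). PDLIM2 changed by -2.27 and TNIP3, an A20-binding protein, by -0.64 (limma adjusted p = 4.66e-07 and 0.00977). Averaged over their probe sets, CYLD was at -0.68 and PDLIM2 at -1.20. TNIP1, the best known partner of A20, did not pass (0.02). The 5 lower and 2 higher of these 12 regulators are 41.7% and 16.7%, beside 21.3% and 29.5% over all genes.

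Of 26 NF-kB target genes outside the members, 21 were lower (80.8%) and 0 higher in limma, beside 21.3% and 29.5% over all genes. At an unadjusted p under 0.05, 1 target was higher, where 5688 of all 18132 genes were. The median log2 change was -1.27. This list overlaps with one whose fall in these arrays was already known and is given as context. CXCL8, CCL2, PLAU and IL6 led it (-7.84, -6.40, -6.00 and -5.97; limma adjusted p = 4.67e-08, 9.92e-07, 1.28e-07 and 1.14e-07). CXCL8 was at -8.97 with _s_at and _x_at probe sets left out, and PLAU at -5.26 and IL6 at -3.97 when their probe sets were averaged. Each of these has a larger change than TNFAIP3, the member that fell most. The whole list's summed log2 signal was 156.2 and 156.4 in the knockdown arrays and 218.7 and 219.2 in the controls, beside the fall of the mesenchymal markers given above.

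**Figure D4:**
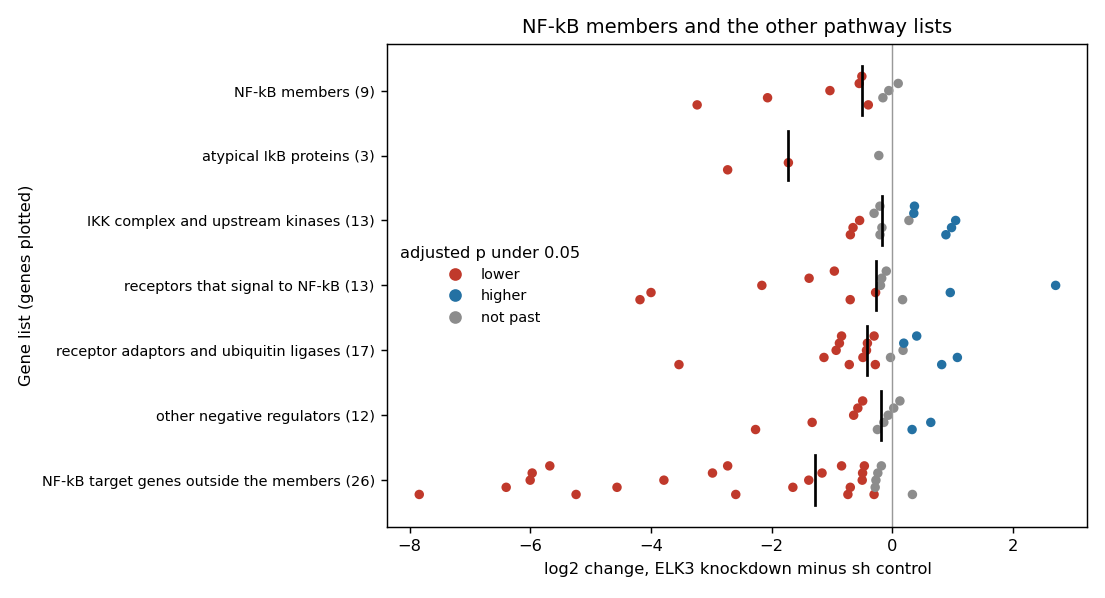
The log2 change of each gene, ELK3 knockdown minus sh control (horizontal axis), for the 9 measured members and 6 lists of other NF-kB pathway genes (number of genes in brackets); red is lower and blue higher at a limma adjusted p under 0.05, grey did not pass, and black bars are list medians. Points of the target list reach -7.84, while the IKK list lies on both sides of 0 with 5 blue and 3 red points.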

How the data were processed

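RNA from 4 samples was measured on 1 array each. The deposited log2 values are one-colour signals per probe set that the authors normalized with RMA, per the submitters' processing notes. Which version and steps were run was not given in the sources used here. Array medians lie between 6.76 and 6.80. Arrays have no read depth, and their number limits the precision.

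Of the probe sets, 44988 have 1 symbol in the platform annotation, 1832 several and 2473 are unnamed here. Each gene was read from its brightest probe set, by the mean of the 4 arrays. The test was limma 3.58.1 under R 4.3.3 (lmFit, eBayes with intensity trend, group as the only factor, two-sided, Benjamini-Hochberg over all genes or over all probe sets, adjusted p under 0.05), with 2 residual degrees of freedom and a prior of 4.83 for genes. An exact permutation test of 2 arrays against 2 has 3 splits and cannot give a p below 0.333. Alternatives changed moderation, probe sets, filter, scaling, threshold and arrays. Named were all members, ELK3, up to 4 genes by size of change among those past the threshold on each pathway list, and the IKK genes; other genes, among them NFKBID, MAP3K14, TNIP1 and the markers, were picked with their values in view. The members and lists were chosen with earlier results of these data known. Plots used matplotlib 3.10.9 (Python 3.11.15).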

Additional observations from a re-analysis of the deposited data

How the results depend on the processing

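Of the 13 alternatives to the gene-level test, 12 left 5 or 6 members lower, and the selection by fold over 1.5 left 3, because NFKB1, NFKB2 and REL fell by less; the same selection left 8 other pathway genes higher. Over all genes, that selection was met by 12.6% as lower and 19.1% as higher. No alternative made a member pass as higher, a count of 0 in each. RELA turned to -0.014 when its probe sets were averaged and NFKBIB to 0.19 without _s_at and _x_at probe sets, and neither passed. Leaving out 1 array at a time gave 5 to 6 members lower, with TNFAIP3 at -3.57 to -2.90, NFKBIA at -1.31 to -0.76 and RELB at -2.11 to -2.02. Leaving out dim genes kept 60 of the 83 other pathway genes, 39 lower and 10 higher, and removed CD40, MYD88 and TNIP3. Of all 10388 genes that this filter kept, 2946 were lower and 4474 higher. REL also missed an adjusted p under 0.01. By probe set, 6 to 10 were lower under the 12 alternatives, and the 6 arose where 10 probe sets were left or a fold was required. Over all probe sets, these settings gave 7406 of 34921 and 6645 of 49293 lower. ELK3 stayed between -2.14 and -1.98. No paired analysis was possible because the groups share only 1 replicate number. Signal over background was not available, and a fold of a dim gene is limited by the floor of the array.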
